A study of Rattus norvegicus with 27 samples.

Results

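Hearts of rats that breathed coarse ambient particles were compared with hearts of rats that breathed filtered air. The members were all arrays titled with coarse particles (6) or with filtered air (7), which made 13 of the 27 arrays of the study, and they were taken by title. The comparison was chosen with earlier results of these data known, and a second fit left arrays out by their measured values. The other 14 arrays were of fine particles (6) and ultrafine particles (8). All animals were male Fisher 344 rats, an inbred strain, 4 weeks old at the start, with 3 months of exposure to filtered air or to 1 particle size. The labels name no genetic change and no second treatment. Total RNA from the heart was labelled and hybridised to Illumina bead arrays, and each array was taken as 1 rat. Nothing in the labels says that the arrays are of separate litters or cages, so a p-value measures only the spread between these arrays. By its title the study asked how long-lasting inhalation of particles bears on transcript levels and signs of oxidative stress in the rat heart.

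The adult heart takes most of its energy from fatty acids, which reach the muscle cell from blood lipoproteins and from stored fat, and it uses glucose when insulin or work calls for it. The pyruvate dehydrogenase complex is the gate between glucose and the mitochondrion, and pyruvate dehydrogenase kinase 4 (Pdk4) closes it during fasting and fat use. Inhaled particles carry metals and organic compounds that cells meet with cytochrome P450 enzymes, conjugating enzymes and antioxidant enzymes.

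Levels are log2 values of the deposited table, from 5.12 to 14.17 over all arrays, and a difference is coarse minus filtered air on that scale unless said otherwise. All 4 groups were fitted in 1 limma model, p-values were adjusted by Benjamini-Hochberg over 11657 probes with a call meaning an adjusted p below 0.05. Heart muscle genes dominated every array: the mean level of 10 cardiomyocyte markers was between 12.40 and 12.64 on the filtered air arrays and between 12.44 and 12.52 on coarse 2 to coarse 6, but was 11.73 on coarse 1. The same array had the lowest median correlation with the other arrays of the study among these 13, at 0.904. RNA of other tissue was present on some arrays. The mean of 15 thymocyte and T cell markers was 8.58 on filtered air 1, 9.60 on coarse 1 and 8.38 on coarse 2, and lay between 5.96 and 6.75 on the other 10 arrays. Tnnt3, the fast skeletal muscle troponin T, was at 8.65 on coarse 6 and at most at 6.14 on the other 12 arrays. Ucp1, which marks brown fat, ranged from 5.82 to 11.30 in filtered air and from 5.54 to 11.13 in coarse, with no separation of the groups. Since filtered air 1, coarse 1 and coarse 2, with 4 arrays of the other sizes, stand apart in lymphocyte markers or correlation, the fit was made for all 27 arrays and again for the 20 arrays left without them, among which are 6 of filtered air and 4 of coarse. Lower amounts of thymocyte RNA stayed in the 20. Coarse 5 and filtered air 2, both kept, had list means of 6.75 and 6.42. Their levels of the T cell gene Cd3d were 7.89 and 7.29, against at most 6.64 on the other kept arrays of filtered air and coarse. In whole heart RNA, fewer cells of a type and less RNA per cell cannot be told apart.

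**Figure D1:**
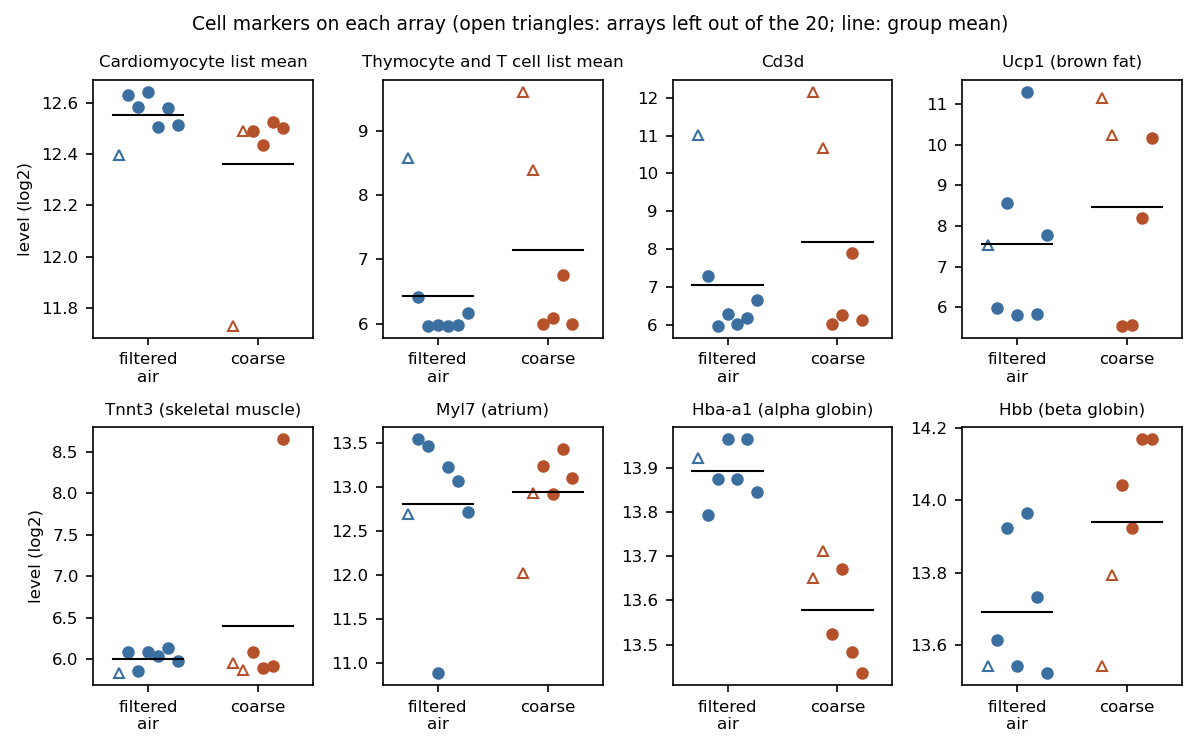
Log2 level on each of the 13 arrays (y axis) for filtered air and coarse particles (x axis), for 2 marker list means and 6 single marker genes. Points are arrays, open triangles are the 3 arrays left out of the 20, and lines are group means over all arrays. Coarse 1 lies lowest for the cardiomyocyte list at 11.73, 3 arrays are high for the thymocyte list, 1 coarse array is high for Tnnt3, and only Hba-a1 shows groups that do not overlap.

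Across all 27 arrays 1 probe was called, 0.00858% of those tested, and it was that of Cyp2e1. In all, 475 probes (4.07%) had an unadjusted p under 0.05, of which 204 were higher (1.75%) and 271 lower (2.32%). Cyp2e1 is the P450 enzyme for ethanol, acetone and other small solvents, and is itself a source of reactive oxygen. Its level in filtered air was lowest at 6.80, had a median of 7.36 and was highest at 7.71, while the coarse arrays lay between 8.04 and 8.23 with a median of 8.14. All 6 coarse arrays thus lay above all 7 filtered air arrays, those highest in thymocyte markers included. The filtered air arrays were also the more spread, with means of 7.30 ± 0.29 (SD, n = 7) and 8.14 ± 0.07 (SD, n = 6). Cyp2e1 rose by 0.84 ± 0.13 (SE) with an adjusted p of 0.0185 in limma, and by 0.74 ± 0.11, or 1.67-fold, with an adjusted p of 0.00333 in the 20 arrays. In the 27 arrays the call depended on which arrays were fitted. It held without coarse 4 or filtered air 1, 4, 5, 6 or 7, at an adjusted p of 0.00535 without filtered air 5. It was lost without coarse 1, 2, 3, 5 or 6 or filtered air 2 or 3 (adjusted p between 0.0556 and 0.0823), without filtered air 1, coarse 1 and coarse 2 together (0.232), and with coarse and filtered air fitted alone (0.0664). In the 20 arrays it held without any single array, with adjusted p up to 0.0199. Here and below, only filtered air and coarse arrays were left out singly, and no fine or ultrafine array was. With all 20 arrays fitted, the Cyp2e1 call was not kept in every alternative. It was lost with fibroblast and cardiomyocyte marker means as covariates, where the difference was 0.80 (0.0631). A block on replicate number also ended the call, at a difference of 0.66.

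The region around the start of Cyp2e1 is shown because this gene carries the one call over all arrays. It and the other promoters below come from the RefSeq table of the GRCr8 assembly. Each holds 300 bases, most of them before the start, and reads 5′ to 3′ on the strand of the gene. Capitals mark matches, on either strand, to TATAAA (the TATA box), AGGTCA (the core hexamer of nuclear receptors), GCGTG (the core bound by the aryl hydrocarbon receptor) or ACGTG (the core bound by hypoxia-inducible factors). The Cyp2e1 window lies at chr1:205269717-205270016 on the plus strand.
Cyp2e1: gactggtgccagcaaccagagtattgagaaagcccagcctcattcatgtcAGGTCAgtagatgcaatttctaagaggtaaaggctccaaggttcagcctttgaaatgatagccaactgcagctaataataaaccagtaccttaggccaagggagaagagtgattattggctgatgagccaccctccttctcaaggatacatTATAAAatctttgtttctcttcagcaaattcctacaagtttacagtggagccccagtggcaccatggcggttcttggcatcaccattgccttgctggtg
The hexamer began 200 bases before the start and the TATA box 49 before it, and no GCGTG was in the window. TATAAA was present in 14.2% and AGGTCA in 16.2% of all 33469 promoters of the table. Such a match is a description of letters and not a binding site.

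The authors' looser rule asked for a 1.5-fold change and a false discovery rate below 25%. In the 27 arrays 3 probes met it, 0.0257% of those tested, and 2 genes thus joined Cyp2e1. Fbxl22, an F-box protein of the sarcomere's Z disc, had levels of 10.08 to 10.58 with a median of 10.24 in filtered air and of 9.07 to 9.88 with a median of 9.69 in coarse. Ccnd1, cyclin D1, which drives cells into the cycle, ranged from 8.46 to 9.15 (median 8.92) in filtered air and from 7.94 to 8.66 (median 8.17) in coarse. The groups did not overlap for Fbxl22 and did overlap for Ccnd1. Their differences were -0.72 and -0.60, each with an adjusted p of 0.21. In all, 12 probes had every coarse array above every filtered air array, 0.103% of those tested, and 21 had every coarse array below, 0.18%. Among named genes of the first kind were Atxn10 (ataxin 10), Slc3a2 (the heavy chain shared by several amino acid exchangers), Slc40a1 (ferroportin, the iron exporter), Impa2 (an inositol monophosphatase), Rnase1 (a secreted ribonuclease) and Cst3 (cystatin C, a secreted protease inhibitor). Of the second kind were Fbxl22, Hba-a1, Tuba8, Kcnd3, Txlnb and Prkaa2, the last a catalytic subunit of AMP-activated kinase. Slc40a1, for one, lay between 7.68 and 7.81 in filtered air and between 7.90 and 8.18 in coarse, with a difference of 0.28 and an adjusted p of 0.447.

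In the 20 arrays 44 probes were called, 0.377% of those tested, of which 29 were higher (0.249%) and 15 lower (0.129%) with coarse particles. An unadjusted p under 0.05 was reached by 1074 probes (9.21%), 4.86% in the upward and 4.36% in the downward direction. They stood for 35 named genes, 22 higher and 13 lower, and 9 probes without a gene name. For 42 of the 44, the 4 coarse and the 6 filtered air arrays did not overlap, against 1.6% of all probes without overlap in the upward and 1.61% in the downward direction. The same arrays made the calls, so this count follows largely from them and is no separate support. The differences were mostly modest, with a median size of 0.47, and 13 probes passed a fold of 1.5. All 44 had the same sign over all 27 arrays, where 30 had an unadjusted p under 0.05. The 27 arrays include those that made the calls, so this is not an independent check. Of the 35 genes, 15 kept their call without any one of the 10 arrays. With the means of fibroblast and cardiomyocyte markers as covariates 1 probe was called, while the differences stayed near their size: 1.33 for Pdk4, 1.07 for Penk, 0.80 for Cyp2e1 and -0.48 for Slc2a4. Under every alternative that fitted it, each of the 35 genes kept its sign and at least 69.7% of its difference, the lowest share being that of Tuba8. The alternatives reuse the arrays that made the calls, so kept signs follow largely from the selection and are no separate support. In these 10 arrays the cardiomyocyte mean lay between 12.51 and 12.64 in filtered air and between 12.44 and 12.52 in coarse, so it moved with the groups, and its part in the calls was not tested.

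**Figure D2:**
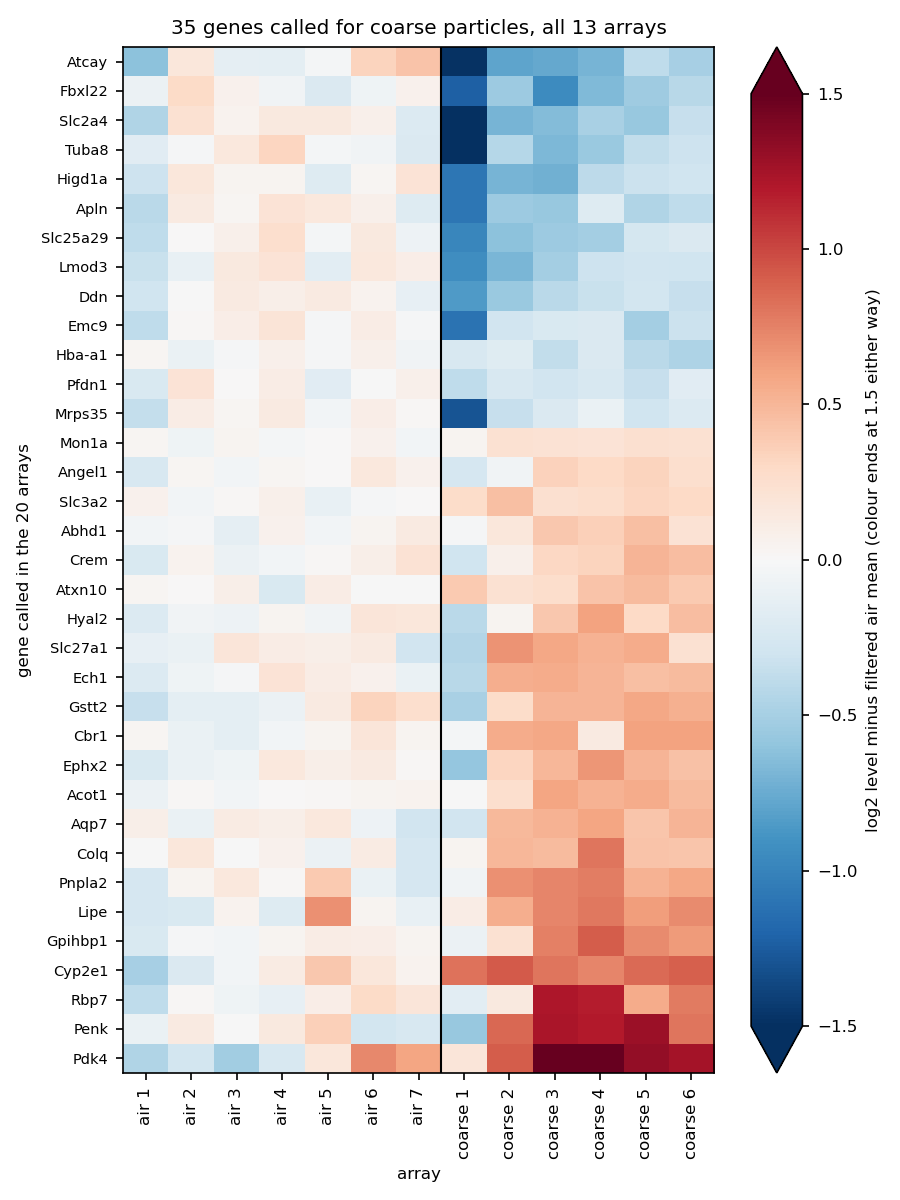
Log2 level minus the filtered air mean (colour, ending at 1.5 either way) for the 35 genes called in the 20 arrays (rows) on all 13 arrays (columns). Coarse 2 to coarse 6 look alike for most rows, while coarse 1 is near or below the filtered air mean for many of the 22 higher genes and is the lowest array for most of the 13 lower ones.

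Pdk4 showed the widest shift of any named call. Its level was lowest at 7.25, had a median of 7.52 and was highest at 8.48 in filtered air, against 7.94, 9.05 and 9.82 in coarse. Coarse 3 and coarse 4 were highest at 9.82 and 9.78, and coarse 1, at 7.94, was the only coarse array inside the filtered air range. Within filtered air, arrays 6 and 7 stood at 8.48 and 8.36, about a log2 unit over arrays 1 to 4. Pdk4 rose by 1.58 ± 0.24 in the 20 arrays, or 3.00-fold, with an adjusted p of 0.00384, and differed by 1.29 ± 0.35 over all 27 with an adjusted p of 0.579. Of the 13 measured genes of the pyruvate dehydrogenase complex and its regulators it was the 1 called in the 20 arrays, where 8 were higher and 5 lower with a median of 0.05.

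Slc2a4, the insulin-responsive glucose transporter GLUT4, fell. Filtered air lay between 9.28 and 9.96 with a median of 9.81, and coarse between 7.82 and 9.38 with a median of 9.12. Only filtered air 1, at 9.28, reached down into the coarse range. Coarse 1 was far below its group at 7.82. Slc2a4 fell by 0.59 ± 0.10 on the log2 scale in the 20 arrays, with an adjusted p of 0.00561, against a difference of -0.78 ± 0.23 and 0.733 in the 27. The call held without any single array. The other 21 measured genes of glucose uptake and glycolysis gave no call: 11 of the 22 were higher and 11 lower, and the list median was 0.02.

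The largest group of called genes handles stored and circulating fat. In the list of lipolysis, lipid droplet and lipid uptake genes, 18 of 22 measured members were higher in the 20 arrays with a median difference of 0.22, against 51.4% of all probes higher and a median of 0.0031. Calls went to 6 of them, all higher, where 0.249% of all probes were called higher. At an unadjusted p under 0.05, 11 were higher, against 4.86% of all probes. This and the other gene lists were written with earlier results of these data known, so such counts are a description and no test. Over the 27 arrays, where 48.4% of all probes were higher, 16 of 22 were higher with a median of 0.16 and none was called by limma. There 5 were higher at an unadjusted p under 0.05, against 1.75% of all probes.

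Gpihbp1, the endothelial protein that holds lipoprotein lipase on the capillary wall, had levels of 6.48 to 6.82 (median 6.74) in filtered air and of 6.62 to 7.61 (median 7.38) in coarse. Coarse 2 to coarse 6 lay above every filtered air array, and coarse 1 lay inside their range. Gpihbp1 rose by 0.71 ± 0.11 in the 20 arrays, or 1.64-fold (adjusted p = 0.00333). Rbp7, which binds retinol in endothelial and fat cells, rose by 0.86 ± 0.14, or 1.82-fold (adjusted p = 0.00586), from a filtered air range of 7.15 to 7.83 to a coarse range of 7.38 to 8.75. Its 2 highest arrays were again coarse 3 and coarse 4, at 8.75 and 8.72. Over the 27 arrays the differences were 0.53 ± 0.17 for Gpihbp1 (adjusted p = 0.851) and 0.62 ± 0.35 for Rbp7 (0.985).

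Lipe (hormone-sensitive lipase) and Pnpla2 (adipose triglyceride lipase) cut triglyceride in lipid droplets. Lipe ranged from 7.16 to 8.09 with a median of 7.30 in filtered air and from 7.51 to 8.20 with a median of 8.07 in coarse. Filtered air 5, at 8.09, lay among the coarse arrays, and the other 6 filtered air arrays were at or under 7.45. Pnpla2 ranged from 8.31 to 8.96 (median 8.59) in filtered air and from 8.52 to 9.33 (median 9.20) in coarse. Lipe rose by 0.67 ± 0.14 (adjusted p = 0.0292) and Pnpla2 by 0.61 ± 0.11 (adjusted p = 0.00853) in the 20 arrays. They differed by 0.59 (0.846) and 0.54 (0.851) over the 27 arrays. Both genes are also markers of fat cells, and fat was present on some arrays. The mean of 9 white adipocyte markers, these 2 among them, lay between 6.83 and 8.01 in filtered air and between 6.98 and 7.91 in coarse, and 4 of the 9 were higher and 5 lower in the 20 arrays. Filtered air 5 was the array with the most Ucp1, at 11.30. Coarse 3 and coarse 4 had the least, at 5.54 and 5.57, with the fat hormone adiponectin (Adipoq) at 5.89 and 5.82, and the 2 highest levels of Lipe, 8.13 and 8.20. The part of fat tissue in these differences was not tested. Without any single array but filtered air 5, Lipe lost its call (adjusted p up to 0.138), and Pnpla2 lost it without coarse 4 (0.0552).

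Aqp7, the glycerol channel that lets glycerol from lipolysis pass, rose by 0.53 ± 0.10 in the 20 arrays (adjusted p = 0.0119), with coarse 2 to coarse 6 at 9.23 to 9.40 and filtered air at 8.53 to 8.97. Slc27a1, the fatty acid transport protein FATP1, rose by 0.45 ± 0.09 (adjusted p = 0.0243), with filtered air at 6.88 to 7.35 and coarse 2 to coarse 6 at 7.40 to 7.84. For both genes coarse 1 lay at the bottom, at 8.53 and 6.73, and the differences over the 27 arrays were 0.37 and 0.35 (adjusted p = 0.985 each). The calls were lost without coarse 4 for Aqp7 (0.0715) and without coarse 3, 4 or 5 or filtered air 2 for Slc27a1 (up to 0.111). Cd36, the main fatty acid translocase of the heart, was at 11.95 ± 0.15 (SD, n = 6) in filtered air and 12.31 ± 0.20 (SD, n = 4) in coarse, a difference of 0.36 with an adjusted p of 0.184.

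The start region of Slc27a1 (chr16:18312717-18313016, plus strand) is shown because, of the windows of Pnpla2, Rbp7 and Slc27a1, it was the 1 that held a nuclear receptor hexamer.
Slc27a1: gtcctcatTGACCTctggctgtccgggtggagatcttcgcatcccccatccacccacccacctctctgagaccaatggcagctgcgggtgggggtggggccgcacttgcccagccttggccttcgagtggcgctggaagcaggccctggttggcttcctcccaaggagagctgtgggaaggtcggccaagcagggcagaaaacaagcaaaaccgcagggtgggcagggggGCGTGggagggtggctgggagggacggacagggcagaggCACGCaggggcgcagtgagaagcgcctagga
The hexamer lies on the minus strand 242 bases before the start. GCGTG occurs 20 bases before the start and, on the minus strand, at base 20 counted from 1 at the start.

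Inside the mitochondrion and peroxisome, 26 of 30 measured genes of fatty acid oxidation and PPAR alpha targets were higher in the 20 arrays, with a median difference of 0.16, but 14 of 30 in the 27 arrays, with a median of -0.01. Without coarse 1 the median over the remaining arrays was 0.18. In the 20 arrays 1 of the 30 was called and 8 were higher at an unadjusted p under 0.05, against 4.86% of all probes. The called gene was Acot1, a cytosolic thioesterase that frees fatty acids from coenzyme A and is a classical PPAR alpha target. Acot1 had a narrow range in filtered air, 6.00 to 6.15, and 6.57 to 6.69 in coarse 3 to coarse 6, with coarse 2 at 6.35 and coarse 1 at 6.09 inside the filtered air range. It rose by 0.52 ± 0.07 (adjusted p = 0.00114) and was the 1 gene of the 35 that kept an adjusted p under 0.05 in all 20 alternatives in which it was fitted, with values between 0.000115 and 0.0428. The filter to the brighter probes removed it, and its difference is short of a 1.5-fold change. Acot1 differed by 0.40 (0.409) over the 27 arrays. Ech1, a dienoyl-CoA isomerase of unsaturated fatty acid oxidation that stood outside the list, rose by 0.47 ± 0.08 (adjusted p = 0.00586), with filtered air at 12.06 to 12.46 and coarse 2 to coarse 6 at 12.72 to 12.82. Coarse 1, at 11.85, was below all of them, and over the 27 arrays Ech1 differed by 0.35 (0.985). Among the uncalled, Mlycd, which removes the malonyl-CoA that blocks fatty acid entry, differed by 0.62 ± 0.15 (adjusted p = 0.0837), Acadvl by 0.30 (0.256) and Acaa2 by 0.41 (0.302). Cpt1b, the muscle carnitine palmitoyltransferase, lay between 8.98 and 9.32 in filtered air and between 9.16 and 9.54 in coarse on these arrays, so that the groups overlapped.

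**Figure D3:**
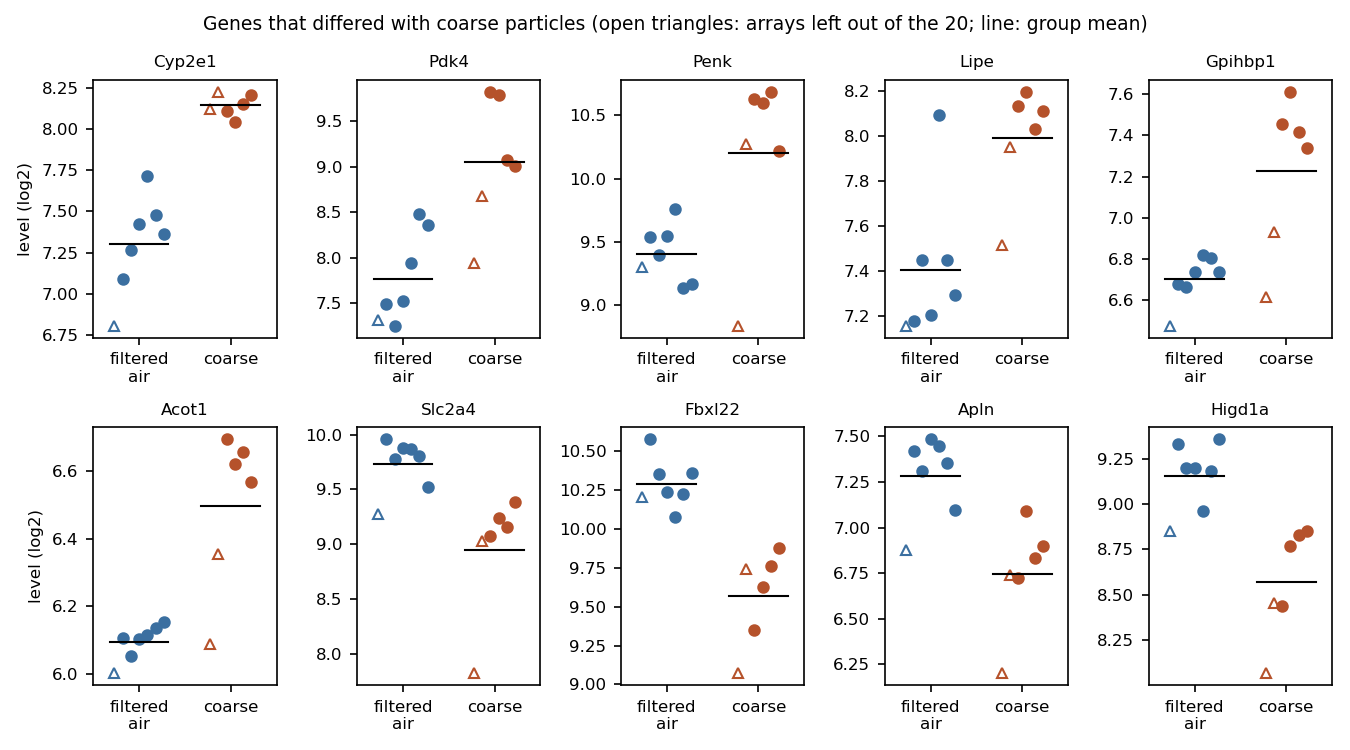
Log2 level on each of the 13 arrays (y axis) for filtered air and coarse particles (x axis) of 10 called genes. Points are arrays, open triangles are the arrays left out of the 20, and lines are means over all arrays. For Cyp2e1 the 6 coarse arrays sit between 8.04 and 8.23, above all filtered air arrays, and for Gpihbp1, Acot1 and Penk coarse 1 is the array that lies at or below the filtered air level.

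Enzymes that act on foreign compounds gave 4 calls in the 20 arrays, all higher. Of 23 measured P450 and other phase I enzymes 14 were higher with a median of 0.05. At an unadjusted p under 0.05, 8 were higher and 2 lower, where 4.86% and 4.36% of all probes were, and 3 were called higher, against 0.249% of all probes. The called genes were Cyp2e1, Ephx2 and Cbr1, and the 2 lower ones Cyb5a (-0.26) and Nqo1 (-0.15). Of the 23, 11 were higher over the 27 arrays with a median of -0.01. Ephx2, the soluble epoxide hydrolase that also breaks down epoxides of arachidonic acid, lay between 9.14 and 9.53 (median 9.38) in filtered air and between 9.69 and 10.03 on coarse 2 to coarse 6, with coarse 1 at 8.79. It rose by 0.49 ± 0.08 (adjusted p = 0.00384). Cbr1, a carbonyl reductase for quinones and lipid aldehydes, rose by 0.49 ± 0.10 (adjusted p = 0.0325). Coarse 4, at 8.18, and coarse 1, at 8.005, were within its filtered air range of 7.89 to 8.22. The Cbr1 call was lost without any of 8 of the 10 arrays (up to 0.128). Of 17 conjugating enzymes Gstt2, a theta class glutathione transferase, was called. It rose by 0.48 ± 0.08 (adjusted p = 0.00988), to between 8.12 and 8.20 on coarse 3 to coarse 6 from a filtered air range of 7.28 to 7.96. Coarse 2, at 7.89, lay inside that range and coarse 1, at 7.13, below it. Over the 27 arrays the differences were 0.31 for Ephx2 (0.985), 0.41 for Cbr1 (0.851) and 0.32 for Gstt2 (0.985). Por, the electron donor of all microsomal P450 enzymes, differed by 0.25 ± 0.07 and was not called (0.142). Only 2 of 13 listed genes of the aryl hydrocarbon receptor pathway were measured on kept probes, and Cyp1a1 and Cyp1b1, its best known targets, were not among them.

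None of the 36 measured antioxidant and Nrf2 target genes was called by limma in either set of arrays. Of the 36, 26 were higher and 10 lower in the 20 arrays with a median of 0.08, and 6 were higher and 2 lower at an unadjusted p under 0.05. Of all probes 51.4% were higher there, and 4.86% were higher and 4.36% lower at that level. Over the 27 arrays 21 of the 36 were higher with a median of 0.02, and 4 were higher and 1 lower at that level. The matching shares of all probes were 48.4%, 1.75% and 2.32%. Hmox1, haem oxygenase 1, is a widely used sign of oxidative stress. It lay between 6.81 and 7.09 (median 6.95) in filtered air and between 6.64 and 7.39 (median 7.25) in coarse. Coarse 2 to coarse 6 lay above all filtered air arrays and coarse 1 below them. Its difference was 0.34 ± 0.08 with an adjusted p of 0.0749 in the 20 arrays and 0.24 with 0.985 in the 27. Glrx, glutaredoxin, differed by 0.30 (0.138), and Gpx8, a glutathione peroxidase of the endoplasmic reticulum, by -0.38 (0.104). Ucp2 and Txnip, which bear on mitochondrial radicals and on thioredoxin, differed by 0.48 each (0.307 and 0.442).

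Penk, the precursor of the enkephalins, which the heart makes and which damp adrenergic drive, had the second largest difference. Filtered air lay between 9.14 and 9.76 (median 9.40), coarse 2 to coarse 6 between 10.22 and 10.69, and coarse 1 at 8.84 below every filtered air array. It rose by 1.11 ± 0.14 in the 20 arrays, or 2.16-fold (adjusted p = 0.00114), and differed by 0.80 ± 0.25 (0.816) in the 27. Crem, a cAMP-responsive transcription factor, rose by 0.36 ± 0.06 (adjusted p = 0.00853) but not without coarse 5 (0.0518). Colq, the collagen tail that anchors acetylcholinesterase, rose by 0.53 ± 0.11 (adjusted p = 0.0292), a call lost without any of 8 of the 10 arrays (up to 0.188). The list of adrenergic, muscarinic and enkephalin genes as a whole was even, with 11 of 24 higher and a median of -0.01. Slc3a2 rose by 0.29 ± 0.06 (adjusted p = 0.049), from a filtered air range of 8.23 to 8.41 to a coarse range of 8.57 to 8.79, and Atxn10 by 0.39 ± 0.08 (adjusted p = 0.023), from 9.58 to 9.91 to 10.03 to 10.28. Both showed every coarse array, coarse 1 included, above every filtered air array. Hyal2, a membrane-bound hyaluronidase, rose by 0.41 ± 0.08 (adjusted p = 0.015), and Abhd1, Angel1 and Mon1a rose by 0.23 to 0.35. The call of Slc3a2 was lost without each of the 10 arrays in turn (adjusted p up to 0.152), and those of the other 5 were lost without between 2 and 8 of them. With all 27 arrays Slc3a2 differed by 0.31 (0.21), Atxn10 by 0.36 (0.985) and Hyal2 by 0.23 (0.985).

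Fbxl22 fell by 0.65 ± 0.11 in the 20 arrays (adjusted p = 0.00663), a call that held without any single array. It was the 1 call among 12 muscle ubiquitin ligase and F-box genes, of which 8 were higher and 4 lower. Lmod3, leiomodin 3, which nucleates thin filaments, lay between 6.87 and 7.41 (median 7.30) in filtered air and between 6.27 and 6.91 (median 6.79) in coarse. It fell by 0.41 ± 0.07 (adjusted p = 0.0106). Tuba8, an alpha tubulin, lay between 8.55 and 9.08 (median 8.74) in filtered air and between 7.16 and 8.46 (median 8.27) in coarse, with no overlap on any array, and fell by 0.51 ± 0.09 (adjusted p = 0.0147). Lmod3 lost its call without coarse 3 (0.0715) and Tuba8 without coarse 3 or coarse 4 (up to 0.0866). The list that holds Lmod3 and Tuba8, 29 Z disc, actin nucleator and costamere genes, was even in the 20 arrays, with these 2 calls, 15 higher and 14 lower and a median of 0.02. Over all 27 arrays 24 of the 29 were lower with a median of -0.11, and without coarse 1 that median was 0.01. Atcay, known in brain as caytaxin, had the largest fall, 0.69 ± 0.13 (adjusted p = 0.015), from between 7.45 and 8.03 on 6 filtered air arrays to between 6.83 and 7.21 on 4 coarse arrays. It lost its call without coarse 3 or coarse 4 (up to 0.0844). Over the 27 arrays the differences were -0.50 for Lmod3 (0.409), -0.66 for Tuba8 (0.378) and -0.77 for Atcay (0.258).

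Apln and Higd1a, 2 genes of the hypoxia response list, fell. Apln encodes apelin, a peptide that strengthens contraction and widens vessels. It lay between 6.88 and 7.49 (median 7.36) in filtered air and between 6.20 and 7.09 (median 6.79) in coarse, with filtered air 1 lowest of its group and coarse 4 highest of its own. Apln fell by 0.47 ± 0.08 in the 20 arrays (adjusted p = 0.00586). Higd1a, a small protein of the inner mitochondrial membrane that binds the respiratory chain in low oxygen, lay between 8.85 and 9.36 (median 9.20) in filtered air and between 8.07 and 8.85 (median 8.61) in coarse. It fell by 0.48 ± 0.08 (adjusted p = 0.00586). The other 16 measured genes of the list were not called: 9 of the 18 were higher and 9 lower in the 20 arrays, 4 and 3 of them at an unadjusted p under 0.05. Of all probes 4.86% were higher and 4.36% lower at that level. Slc25a29, which carries basic amino acids into the mitochondrion, fell by 0.45 ± 0.08 (adjusted p = 0.00586), and Ddn, dendrin, by 0.39 ± 0.06 (adjusted p = 0.00333). All 4 kept their calls without any single array. With all 27 arrays they differed by -0.54 (Apln, 0.484), -0.59 (Higd1a, 0.985), -0.52 (Slc25a29, 0.648) and -0.46 (Ddn, 0.21). Emc9, Pfdn1 and Mrps35 fell by 0.27 to 0.38 and lost their calls without some arrays.

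The starts of Higd1a (chr8:130400839-130401138, minus strand) and Fbxl22 (chr8:75971665-75971964, minus strand) are shown out of 4 genes that fell and hold the hypoxia core, with Pfdn1 and Tuba8. Higd1a was taken as the 1 of the hypoxia response list and Fbxl22 as the 1 past the looser rule over all arrays.
Higd1a: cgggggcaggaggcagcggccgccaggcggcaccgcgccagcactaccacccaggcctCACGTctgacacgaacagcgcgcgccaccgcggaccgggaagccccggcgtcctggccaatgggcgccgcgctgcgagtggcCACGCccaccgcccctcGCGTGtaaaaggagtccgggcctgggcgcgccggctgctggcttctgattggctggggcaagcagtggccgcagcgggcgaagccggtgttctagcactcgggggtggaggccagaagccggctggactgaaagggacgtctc
Fbxl22: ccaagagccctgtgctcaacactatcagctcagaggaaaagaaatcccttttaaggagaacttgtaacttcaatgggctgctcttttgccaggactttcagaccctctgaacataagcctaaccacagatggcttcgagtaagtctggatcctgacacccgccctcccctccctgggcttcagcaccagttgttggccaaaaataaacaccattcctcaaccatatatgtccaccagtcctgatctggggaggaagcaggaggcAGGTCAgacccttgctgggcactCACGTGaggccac
In Higd1a the hypoxia core lies on the minus strand 192 bases before the start, with GCGTG 93 bases before it on the plus strand and 110 before it on the minus strand. In Fbxl22 the letters CACGTG, where the core begins at base 38 counted from the start on the minus strand, read as the core on both strands, and a hexamer begins at base 15. Promoters were in the table for 23 of the 35 called genes. Of these 4 held ACGTG, against 19.3% of all promoters, 4 held AGGTCA, 3 held TATAAA, and 10 held GCGTG, against 29.7%. The core bound by FoxO factors, GTAAACA, was in none of the 23 and in 3.78% of all promoters. No match on its own says that a factor binds there.

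Of the globins, 1 was called. Hba-a1, alpha globin, lay between 13.79 and 13.97 (median 13.88) in filtered air and between 13.44 and 13.71 (median 13.59) in coarse. The 2 groups did not overlap over all 13 arrays, the 3 arrays highest in thymocyte markers included. It fell by 0.36 ± 0.07 in the 20 arrays (adjusted p = 0.0325), and the call was lost without any of 7 of the 10 arrays (up to 0.124). Hbb, beta globin, stood at 13.72 ± 0.19 (SD, n = 6) in filtered air and 14.08 ± 0.12 (SD, n = 4) in coarse, a difference of 0.36 ± 0.10 in the other direction (adjusted p = 0.156). Hbb-b1, a second beta chain, differed by 0.73 (0.486) and the red cell genes Ahsp and Alas2 by 0.58 (0.665) and 0.44 (0.681). Of the 9 measured red cell genes 7 were higher. Hba-a1 and Hbb both lie near the top of the table, at 14.17, which Hbb reached on coarse 5 and coarse 6. There the level of a probe is set by its rank on the array, so the size of both differences is limited by the few steps between the brightest probes.

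The arrays left out offered a look at the calls in rats that had not entered them. Filtered air 1 and coarse 2 carried like amounts of thymocyte RNA, with list means of 8.58 and 8.38, and like cardiomyocyte means, 12.40 and 12.49. Coarse 2 minus filtered air 1 had the sign of the 20-array difference for 42 of the 44 called probes, against 53.7% of all probes. All 29 higher probes were higher, with a median of 0.50 beside 0.49 in the 20 arrays, and 13 of 15 lower probes were lower, with a median of -0.24 beside -0.41. Pdk4 differed by 1.36, Cyp2e1 by 1.42 and Penk by 0.97 in this pair. The exceptions were Emc9 (0.09) and Mrps35 (0.02). Brown fat differed within the pair, with Ucp1 at 7.53 and 10.23. Coarse 1 minus filtered air 1 gave another picture: 27 of 44 probes had the sign, against 52.6% of all, with 13 of 29 of the higher and 14 of 15 of the lower probes. Coarse 1 had a cardiomyocyte mean of 11.73 and a thymocyte mean of 9.60. These are differences between single arrays, with no test.

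**Figure D4:**
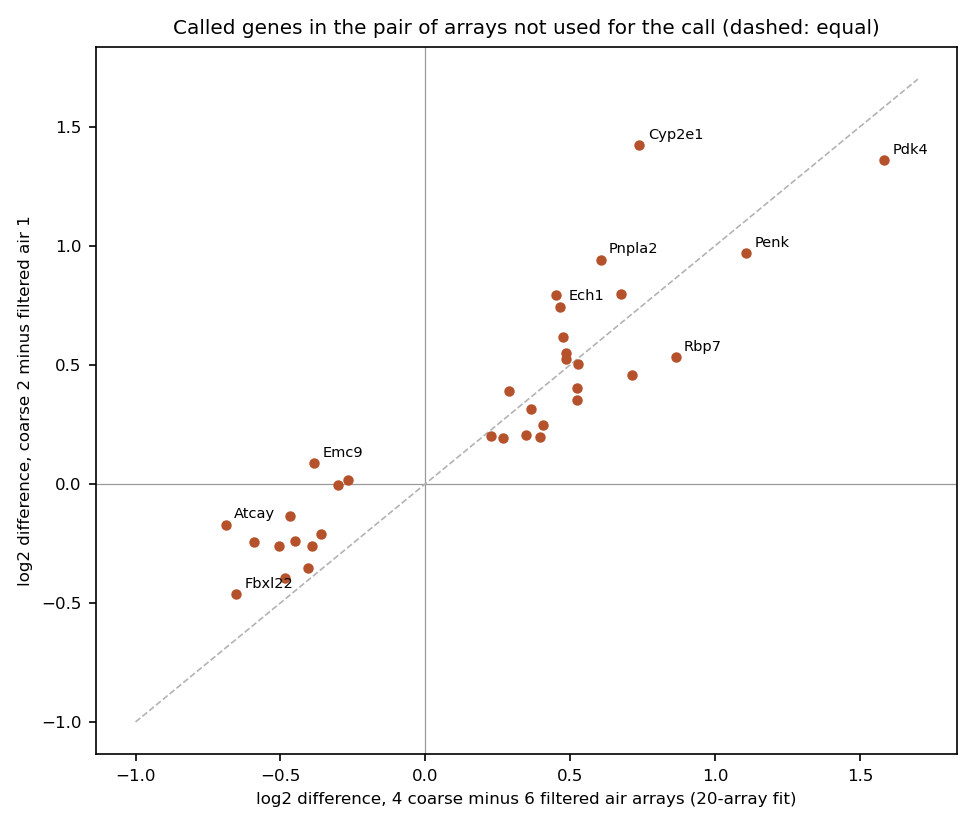
Log2 difference of coarse 2 minus filtered air 1 (y axis) against the difference in the 20-array fit, which used neither array (x axis), for the 35 called genes, with the line of equality dashed. All 22 higher genes lie above 0 and the lower genes lie below 0 except Emc9 (0.09) and Mrps35 (0.02).

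The 35 genes were also set against the other particle sizes. These contrasts share the coarse arrays with the comparison above, so they are not independent of it. Against fine particles 16 of the 35 genes were called in the 20 arrays, where 0.275% of all probes were and 10.0% had an unadjusted p under 0.05. In the 27 arrays 3 of the 35 were called, and these were the only 3 calls (0.0257% of all probes, with 6.58% at an unadjusted p under 0.05). Rbp7 was at 7.34 ± 0.32 (SD, n = 5) with fine particles, 1.13 below its level with coarse (adjusted p = 0.00139). Pdk4 was at 7.92 ± 0.23, 1.50 below coarse (0.00688), Cyp2e1 at 7.29 ± 0.16, 0.83 below (0.0015), and Penk at 9.74 ± 0.35, 0.80 below (0.0185). On the same arrays filtered air stood at 7.61 for Rbp7, 7.84 for Pdk4, 7.39 for Cyp2e1 and 9.43 for Penk. Of the genes that fell, Fbxl22 had a coarse minus fine difference of -0.80 (0.00208), Tuba8 one of -0.72 (0.00145) and Slc2a4 one of -0.67 (0.00211).

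Against ultrafine particles 0 probes were called by limma in the 27 and in the 20 arrays, with 299 (2.56%) and 884 (7.58%) at an unadjusted p under 0.05. Pdk4 was at 9.65 ± 0.44 (SD, n = 5) with ultrafine particles and 9.43 ± 0.44 (SD, n = 4) with coarse, a difference of -0.22 ± 0.25 (SE), and Cyp2e1 at 8.06 ± 0.23 and 8.13 ± 0.07, a difference of 0.07 ± 0.12. Slc2a4 differed by 0.09 ± 0.10, Fbxl22 by -0.07 ± 0.12 and Penk by 0.11 ± 0.15. A missed threshold does not show that the levels are equal, and these standard errors run up to 0.25. Hba-a1, at 13.76 with ultrafine and 13.74 with fine particles, lay between filtered air (13.89) and coarse (13.53) in both.

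The following gene groups had no call in limma, and many of their shifts over all arrays rested on coarse 1. Of all probes 48.4% were higher in the 27 arrays and 51.4% in the 20. Collagens and other matrix genes were lower in 29 of 32 cases over the 27 arrays with a median of -0.24. In the 20 arrays 22 of 32 were lower with a median of -0.12, and without coarse 1 the median was -0.11. Col1a2, a chain of type I collagen, differed by -0.45 (adjusted p = 0.231) and Postn, periostin, by -0.48 (0.395). Macrophage markers kept their direction, with 16 of 19 higher in both sets of arrays, medians of 0.16 and 0.11, and 5 and 6 genes at an unadjusted p under 0.05. Those 5 and 6 were all higher, as were 1.75% and 4.86% of all probes at that level. The macrophage list mean was 7.09 to 7.29 on the 6 filtered air arrays and 7.24 to 7.39 on the 4 coarse arrays. Cd163, a haemoglobin scavenger receptor, differed by 0.23 (0.249), Ctss, cathepsin S, by 0.36 (0.363), and C1qa, a complement C1q chain, by 0.21 (0.399). Cytokine, chemokine and Toll receptor genes gave 26 of 41 higher with a median of 0.04 in the 20 arrays.

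Ribosomal protein genes turned with the arrays used: 49 of 56 were higher over the 27 arrays with a median of 0.08, and 36 of 56 were lower in the 20 with a median of -0.05, 12 of them at an unadjusted p under 0.05, where 4.36% of all probes were lower. Their list mean was highest on coarse 1, at 11.94, beside its thymocyte mean of 9.60, and whether the thymocyte RNA accounts for this was not tested. Respiratory chain and ATP synthase genes turned too, from 42 of 53 lower with a median of -0.10 to 36 of 53 higher with a median of 0.03. Cyclins and mitotic genes went from 23 of 29 higher (median 0.14) to 15 of 29 (median 0.01), and class II antigen presentation genes from a median of 0.22 to 0.02.

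The channel genes were even as a list, with 13 of 25 higher in the 20 arrays, and 1 higher and 5 lower at an unadjusted p under 0.05, where 4.86% and 4.36% of all probes were. Of its 12 lower members, Kcnd3, Kcnd2 and Kcnip2 encode subunits of the transient outward potassium current, which repolarises the rat ventricle. They were picked out after their values were seen, and none was called. Kcnd3 lay between 6.74 and 7.31 (median 6.88) in filtered air and between 6.34 and 6.74 (median 6.51) in coarse, with every coarse array below every filtered air array. Kcnd3 differed by -0.46 ± 0.12 in the 20 arrays (adjusted p = 0.122), Kcnd2 by -0.61 ± 0.20 (0.29) and their partner Kcnip2 by -0.41 ± 0.12 (0.193). Of 11 clock genes 8 were lower in both sets of arrays, with a median of -0.08 in each, no call and 1 at an unadjusted p under 0.05. That 1 was lower, as were 2.32% of all probes in the 27 arrays and 4.36% in the 20 at that level. Per2, a clock gene with a wide daily swing, spread from 7.61 to 9.82 within filtered air and from 7.04 to 9.06 within coarse. Natriuretic peptides, signs of wall stress, overlapped between the groups: Nppa lay between 10.05 and 12.83 in filtered air and between 10.35 and 12.39 in coarse, and Nppb between 10.73 and 12.10 and between 9.97 and 11.17.

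**Figure D5:**
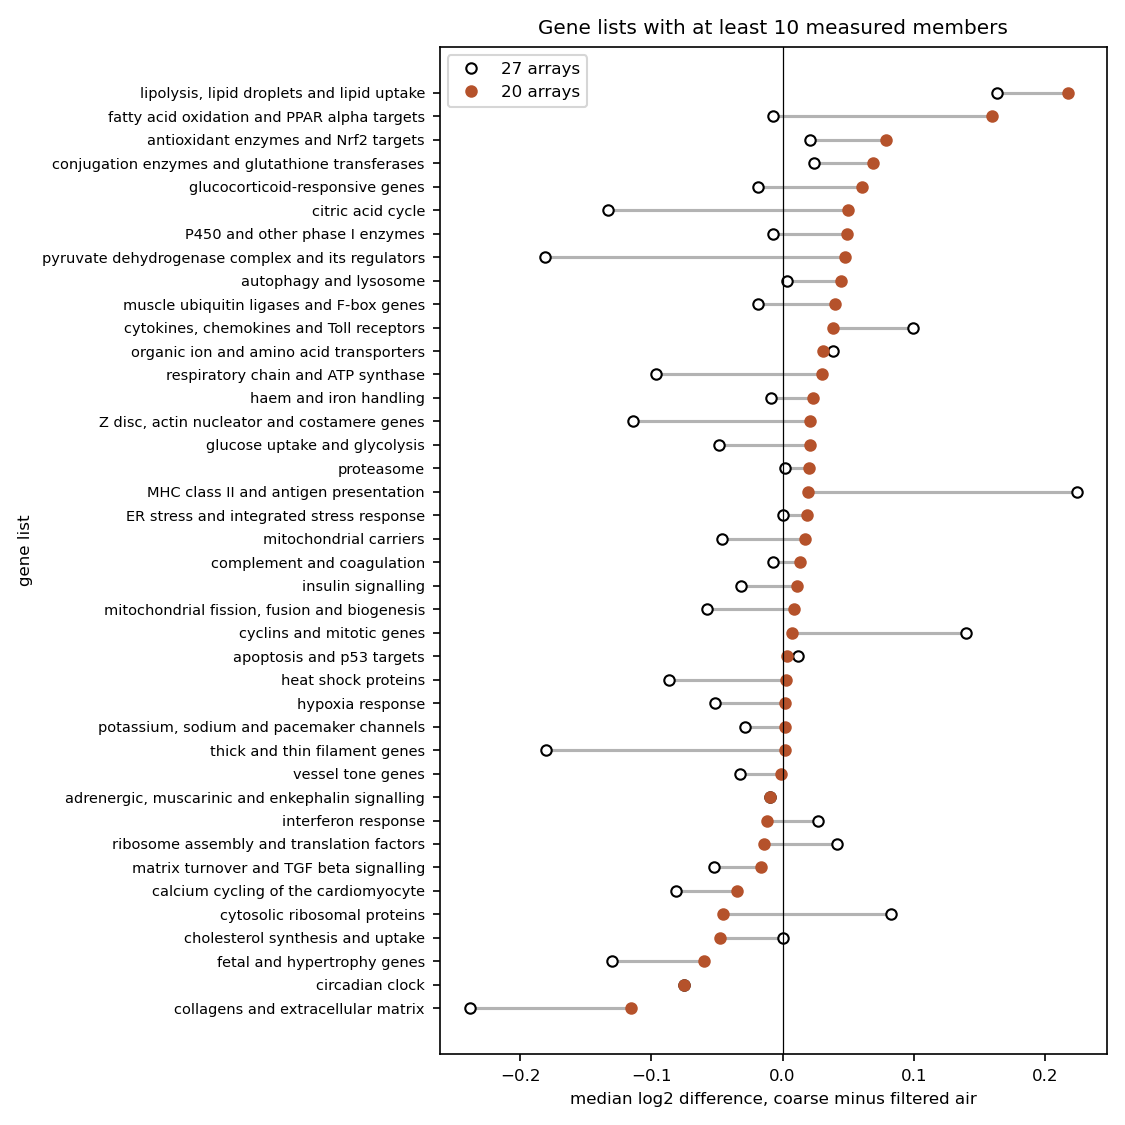
Median log2 difference, coarse minus filtered air (x axis), of each gene list with at least 10 measured members that is not a list of cell markers (y axis), in the 27 arrays (open) and the 20 arrays (filled). Lipolysis and lipid uptake genes lie highest in the 20 arrays at 0.22, collagens and matrix genes lowest at -0.12, and the sets of arrays differ in sign for several lists.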

How the data were processed

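Illumina bead array levels of 22226 probes were taken from the deposited table of 27 arrays. The authors preprocessed the signals with lumi 1.5.17 at default settings, per the labels and the submitters' processing notes, and removed 5 of 32 arrays. The deposited values were used as log2. Whether the transform was plain log2 or variance stabilizing, which compresses dim probes, is not given in the sources used here. Sorted values of any 2 arrays differed little (at most 0.0185 from filtered air 1), so the arrays share 1 distribution. No detection values were used, and the number of arrays limits the precision. All per-sample columns matched a sample.

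Symbols came from GEO's platform annotation for 13192 probes, updated by gene identifier for 13151, and 9034 probes had none. As many probes as the authors kept, 11657, were kept by highest mean. They carried 7952 gene names, and 1 probe per gene, that of highest mean, stood for it. The fit was lmFit and eBayes of limma 3.58.1 in R 4.3.3, two-sided, without covariates, with adjustment within each contrast. On simulated data with known shifts it recovered 94% of shifts of 1 in the 27 arrays and 91% in the 20 among 11657 probes. That simulation drew independent noise for each probe at the spread of the 27 arrays, so its rates are not the power in these data. Genes were named where called, past the authors' looser threshold, among the 12 smallest p-values in each direction, among up to 5 members of each of 60 lists, up to 15 by size in each direction where the groups did not overlap, or as key members. Single values outside this rule, such as the brown fat and skeletal muscle markers by array, were chosen after their values were seen. The arrays compared, the 7 arrays that stand apart and all lists were chosen with earlier results of these data known. Lists are described by counts and medians with no test. Alternatives tried were other filters, normalizations, variance models, array weights, covariates, a block on replicate number, and each filtered air or coarse array left out. No fine or ultrafine array was left out singly.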

Additional observations from a re-analysis of the deposited data

Results flagged for a closer look

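In groups of 4 to 10 arrays an array was singled out where its gap to the nearest other array was large for the group's range (Dixon's test), which chance does in about 1 group in 20. It was applied to 106 groups, the called genes and the cell marker means of each exposure, and 26 values passed. Coarse 1 gave most of them. It was the lowest coarse array for Aqp7 (8.53), Atcay (6.11), Ech1 (11.85), Emc9 (6.81), Ephx2 (8.79), Gstt2 (7.13), Lipe (7.51), Mon1a (7.22), Mrps35 (8.03), Penk (8.84), Pnpla2 (8.52), Slc2a4 (7.82) and Tuba8 (7.16). It was also lowest for the mean of cardiomyocyte (11.73), endothelial (6.85), fibroblast (8.12), smooth muscle and pericyte (6.51) and red cell markers (8.55), and highest for macrophage markers (7.69). Genes that rose and genes that fell are thus both low on this array. Coarse 1 and filtered air 1 had been left out beforehand for standing apart, and most of the genes were called without them. The groups also reuse the same arrays. The 26 flags are thus not independent, and their number is not to be set against the 1 in 20.

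Filtered air 1 was highest for thymocyte and T cell markers (8.58) and for B cell markers (6.16), and lowest for Emc9 (7.54) and Mrps35 (8.96). Filtered air 4 was lowest for Atxn10 (9.58), and filtered air 5 was highest for Lipe (8.09). Coarse 6 was highest for skeletal muscle markers (9.33). The median of the skeletal muscle list over the 27 arrays was 0.32, and without coarse 6 it was -0.01.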

How the results depend on the processing

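The count of calls moved widely. In the 27 arrays, with 1 probe called, it was 126 with array weights, 44 in the 20 arrays, 26 with fibroblast and cardiomyocyte means as covariates, 14 with the thymocyte mean as a covariate, 3 with cyclic loess, 3 under the authors' looser rule, and 0 with coarse and filtered air alone (lowest adjusted p 0.0664) or without coarse 1, coarse 2 and filtered air 1 (0.232). It was 0 to 2 when 1 array was left out. In the 20 arrays, with 44 called, it was 140 with array weights and 1 with fibroblast and cardiomyocyte means as covariates. It was 23 to 45 when 1 array was left out, with 26 without coarse 3, 23 without coarse 4 and 28 without coarse 5. Other filters, normalizations, the variance trend, the thymocyte covariate and a fit of the 2 groups alone gave 35 to 54. The number of the 35 genes called against fine particles was 3 in the 27 arrays and 16 in the 20. The cause of these moves was not tested.

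The labels do not say that replicate numbers pair arrays, and the numbers were not taken as pairs. Deviations from the group mean of same-numbered coarse and filtered air arrays correlated between -0.18 and 0.87, with 2 of 6 below 0, and 3 of 6 coarse arrays correlated best with their own number, which does not exclude a shared factor in some of them. With the replicate block 9 probes were called in the 27 arrays and 17 in the 20, and Cyp2e1 (adjusted p = 0.0544), Ephx2, Fbxl22, Higd1a, Aqp7, Lipe, Pnpla2 and Slc27a1 were among the 21 genes that lost their call.

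None of the 35 genes called in the 20 arrays, nor Cyp2e1, Fbxl22 and Ccnd1 in the 27, reversed its sign under any alternative run. These genes were selected in the same arrays, so this follows largely from the selection and is no separate support. In the 20 arrays Acot1 kept its call in the 20 alternatives that fitted it, which leave out the filter to brighter probes, and missed the 1.5-fold rule. The other 34 called genes each lost the call under the fibroblast and cardiomyocyte covariates, with differences of at least 69.7% of their size under every alternative that fitted them. Of the 35, 14 lost it under no alternative but those covariates and the block. Left-out arrays ended 20 of the 35 calls: 14 without coarse 3, 14 without coarse 4, 14 without coarse 5 and 11 without coarse 6. In the simulation of the 20 arrays, which drew independent noise, 58% of shifts of 0.5 were recovered and the rest were missed. This rate is not the power in these data.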

Other observations

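Further groups without a call in limma in the 20 arrays are given as values, with single uncalled genes of other groups. Genes of cholesterol synthesis and uptake were lower in 14 of 20 cases, with a median of -0.05 beside 0.0031 for all probes. At an unadjusted p under 0.05, 1 was higher and 5 lower, where 4.86% and 4.36% of all probes were. The 5 were all enzymes of the synthesis path, and none of them was called. Sc5d, a late desaturase of the path, lay between 6.80 and 7.30 (median 7.04) in filtered air and between 6.39 and 7.05 (median 6.77) in coarse, a difference of -0.39 ± 0.14 (adjusted p = 0.338). Sqle, Idi1, Mvd and Hsd17b7 differed by -0.17, -0.13, -0.17 and -0.15. The 1 higher gene was Nr1h3, the sterol sensor LXR alpha, at 0.23. In the 27 arrays the list was even, 10 higher and 10 lower.

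The hypertrophy list was even in the 20 arrays, with 8 higher and 9 lower and a median of -0.06. At an unadjusted p under 0.05, 5 of its 17 genes were higher and 2 lower, where 4.86% and 4.36% of all probes were. Nkx2-5 and Hand2, transcription factors of heart development, differed by 0.34 (adjusted p = 0.147) and 0.28 (0.149), Rcan1, an inhibitor of calcineurin, by 0.52 (0.338), and the lower ones, Acta1 and Srf, by -0.59 (0.533) and -0.19 (0.531). Filament genes were even too, with 7 of 13 higher and a median of 0.0016. At that level 4 of them were lower and 0 higher, among them cardiac troponin T (Tnnt2), which differed by -0.33 (0.218). Ddit3, the stress factor CHOP, differed by -0.47 (0.092), Foxo3 by 0.24 (0.085), the mitochondrial glycine carrier Slc25a38 by -0.31 (0.053) and Slc22a3, an organic cation transporter, by 0.29 (0.072). Angptl4, an inhibitor of lipoprotein lipase, differed by 0.47 ± 0.17 (0.353), and Abcc9, a subunit of the ATP-sensitive potassium channel, by -0.55 ± 0.20 (0.338).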
